A study of Mus musculus with 4 samples.

Results

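Interferon-stimulated genes are the transcripts that a cell makes in bulk after it has sensed an interferon. A set of 43 of them, named one by one, was followed through single-cell RNA profiles of mouse liver, and 41 of the 43 had a row in the count tables of 32285 genes; Mx1 and Mx2 were not analysed here. All 4 libraries came from livers of male offspring: fetuses at day E18.5 of mothers with the intrauterine hyperglycemia model (IHG), fetuses of the same day of control mothers (Ctrl), and adult offspring at 8 weeks of IHG and of Ctrl mothers. The labels give neither the strain nor the agent that made the mothers hyperglycemic. Each library pooled material from 3 pregnant mice or 3 adult animals, so there was 1 library per group. No test between groups was possible, and cells were not treated as replicates. Every interval below covers counting error only, and not the differences between animals, digestions or captures. The study's design asks about the inflammatory state of the offspring's liver.

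As background, type I interferons (Ifna genes, Ifnb1) signal through the receptor chains Ifnar1 and Ifnar2, and type III interferons (Ifnl genes) through Ifnlr1 with Il10rb. Both activate the kinases Jak1 and Tyk2 and factors that include Stat2 and Irf9, which bind an interferon-stimulated response element (ISRE) in the promoters of their targets. Type II interferon (Ifng) signals through Ifngr1 and Ifngr2 and acts on promoters with a gamma-activated site (GAS), and many guanylate-binding and immunity-related GTPases answer to it. In the liver, macrophages and plasmacytoid dendritic cells are known sources of type I interferon, and natural killer (NK) and T cells of Ifng.

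Promoters of 5 of the genes that carry the results are shown first, because each holds the element searched for here; other genes of the set had no match, as given below them. They are the 250 bases before the transcription start in RefSeq on GRCm38.p6, 5′ to 3′ on the gene's strand, with the letters that match the ISRE in capitals. The ISRE was searched as GAAANNGAAA, or TTTCNNTTTC on the other strand, and overlapping matches run together. Isg15, a ubiquitin-like modifier, is at chr4:156200819-156201068 on the minus strand, and its 3 overlapping matches begin 78 bases before the start. Ifit3 and its near copy Ifit3b, which bind foreign RNA together with Ifit1, are at chr19:34583279-34583528 and chr19:34607707-34607956 on the plus strand. The same pair of matches stands 156 and 122 bases before the start of Ifit3, and 188 and 154 bases before that of Ifit3b. Rsad2, the antiviral enzyme viperin, is at chr12:26456453-26456702 on the minus strand with 1 match at 120 bases. Bst2, the membrane tether tetherin, is at chr8:71537473-71537722 on the minus strand with overlapping matches at 130 and 124 bases.
Isg15: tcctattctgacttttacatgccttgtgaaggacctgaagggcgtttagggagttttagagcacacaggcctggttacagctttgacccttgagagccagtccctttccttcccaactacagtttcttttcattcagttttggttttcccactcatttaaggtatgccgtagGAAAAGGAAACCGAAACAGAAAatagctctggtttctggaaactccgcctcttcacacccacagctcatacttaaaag
Ifit3: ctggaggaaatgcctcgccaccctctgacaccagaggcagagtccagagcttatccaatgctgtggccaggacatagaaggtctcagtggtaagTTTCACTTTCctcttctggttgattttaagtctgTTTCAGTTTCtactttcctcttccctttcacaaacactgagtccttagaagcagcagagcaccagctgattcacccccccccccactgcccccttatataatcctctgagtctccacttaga
Ifit3b: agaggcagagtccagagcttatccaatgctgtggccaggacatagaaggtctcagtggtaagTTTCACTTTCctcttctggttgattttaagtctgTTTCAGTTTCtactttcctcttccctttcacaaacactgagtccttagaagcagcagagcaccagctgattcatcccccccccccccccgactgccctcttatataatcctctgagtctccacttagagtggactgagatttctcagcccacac
Rsad2: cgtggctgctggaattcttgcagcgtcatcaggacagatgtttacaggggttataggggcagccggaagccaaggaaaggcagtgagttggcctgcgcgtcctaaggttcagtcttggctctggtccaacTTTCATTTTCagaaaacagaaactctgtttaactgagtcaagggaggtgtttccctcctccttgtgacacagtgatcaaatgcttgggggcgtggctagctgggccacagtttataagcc
Bst2: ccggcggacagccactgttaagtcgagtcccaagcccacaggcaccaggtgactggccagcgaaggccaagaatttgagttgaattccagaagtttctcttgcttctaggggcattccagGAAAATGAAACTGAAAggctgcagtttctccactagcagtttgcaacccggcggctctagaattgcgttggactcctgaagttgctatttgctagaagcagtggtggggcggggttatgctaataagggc

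Of the 43 genes, 32 had an entry among the RefSeq windows of 300 bases, which run from 250 bases before the start to 50 after it. In 22 of these 32 genes (68.8%, exact 95% interval 49.99 to 83.9%) a window held the ISRE letters, against 3.99% of all 27025 genes with a window. With a C after the element (GAAANNGAAAC), the counts were 18 of 32 genes (56.2%) and 0.944% of all genes. The GAS letters, searched as TTCNNNGAA, which reads the same on both strands, stood in 8 of 32 genes (25%) and in 9.55% of all genes. The windows of Ifit2, Irf7, Irf9, Xaf1, Oasl1, Oasl2, Cmpk2, Ifi35, Ifi44 and Ifi47 held no ISRE match. A match is a description of letters and not evidence of binding. The genes sit on 16 chromosomes, with 7 on chromosome 11 and 5 on chromosome 19, where Ifit1, Ifit1bl1, Ifit2, Ifit3 and Ifit3b lie side by side.

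The fetal libraries were deeper than the adult ones, with a median of 9116 (IHG) and 6645 (Ctrl) unique molecular identifiers (UMIs) per barcode, and the adult libraries had 2235 (IHG) and 2558 (Ctrl). After filtering, 7925 fetal IHG, 7594 fetal Ctrl, 6500 adult IHG and 4951 adult Ctrl cells were kept. Clusters were named from marker genes as "like" a cell class, and 7 named classes at each age had at least 50 cells in both libraries and were compared. Fetal clusters 11 (535 IHG and 147 Ctrl cells), 12 (269 and 336) and 18 (237 and 88) also reached that size. They got no name from the markers and were not compared. Levels are UMI counts of a gene per 1000000 UMIs of the class, abbreviated CPM. The UMIs mark 3′ ends, so they were not divided by gene length, and levels of different genes are on that scale only. Of the kept UMIs, haemoglobin transcripts took 20.01% in fetal IHG and 35.1% in fetal Ctrl cells, against 0.0117% and 0.0003% in the adult libraries. Fetal macrophage-like cells (353 IHG and 6 Ctrl cells) could not be compared, and no adult cluster was hepatocyte-like. The libraries of a pair shared between 8 and 26 barcodes.

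Among the 7 compared classes of the fetal liver, most of these genes were highest in endothelial-like or monocyte-like cells. Endothelial-like cells had the highest level of 25 of the 41 genes in the IHG library and 22 in the Ctrl library, and monocyte-like cells of 12 and 15. Macrophage-like cells were left out of this ranking. In the IHG library Irf7, Irf9 and Stat2 summed to 414.0 CPM in them, against 196.8 CPM in monocyte-like and 191.3 CPM in endothelial-like cells. Their Isg15 was above that of endothelial-like cells (730.5 against 583.8 CPM), and their Ifit1 was below it (99.95 against 299.1 CPM). Ifitm3, which blocks the entry of enveloped viruses, led the set with 3525 CPM (IHG) and 4671 CPM (Ctrl) in monocyte-like cells. Isg15 was an exception to that pattern. It stood at 815.4 CPM (IHG) and 886.7 CPM (Ctrl) in erythroid-like cells, against 583.8 and 666.3 CPM in endothelial-like cells. Rsad2 had the same order, with 440.6 CPM (IHG) and 430.2 CPM (Ctrl) in erythroid-like cells. Among the compared classes Iigp1, an immunity-related GTPase, was nearly limited to endothelial-like cells (537.5 and 419.2 CPM) and hepatocyte-like cells (89.8 and 88.2 CPM). In the other 5 compared classes it stayed under 1 CPM in both libraries. Ifit3 separated the compared classes as sharply, at 322.7 and 336.8 CPM in endothelial-like cells against 13.9 and 20.4 CPM in monocyte-like cells. Macrophage-like cells lay outside this comparison. In the IHG library their 5 Ifit genes summed to 665.4 CPM, against 841.2 CPM in endothelial-like cells.

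In the adult liver the IHG and Ctrl libraries ordered the classes differently. Over the 7 compared classes and the stellate/fibroblast-like cells, those stellate/fibroblast-like cells had the highest level of 30 of 41 genes in the IHG library and of 2 of 41 in the Ctrl library. In the Ctrl library the highest levels were spread over cholangiocyte-like (13 genes), monocyte-like (8) and neutrophil-like cells (7). Irgm1, an immunity-related GTPase, was highest in cholangiocyte-like cells in both libraries (223.8 CPM in IHG and 240.6 CPM in Ctrl). Ifitm3 stood at 5058 CPM (IHG) and 4998 CPM (Ctrl) in monocyte-like cells. B-like cells were at the other end, with 8.51 CPM (IHG) and 7.57 CPM (Ctrl) of Isg15.

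**Figure D1:**
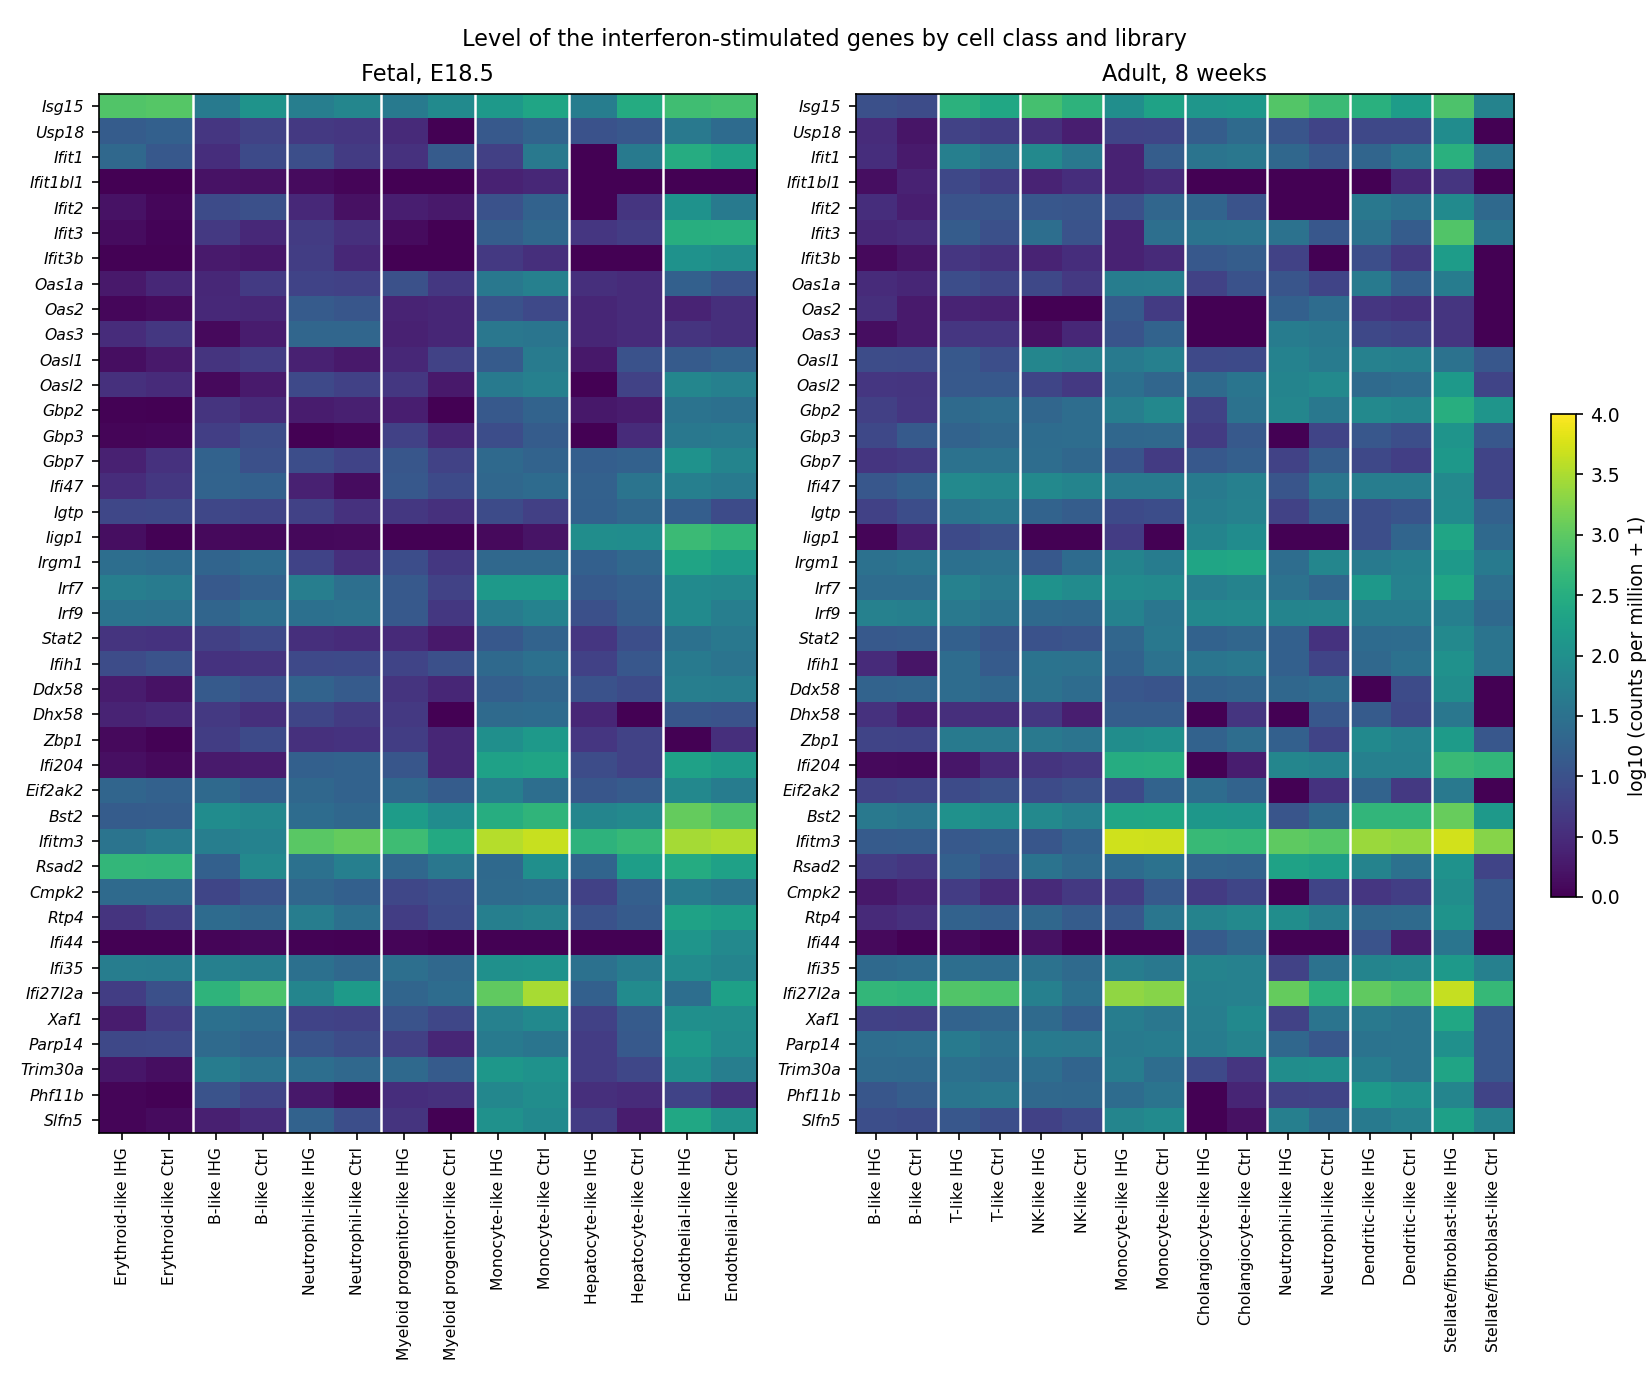
Level of each of the 41 genes (down the page) in each compared cell class and library (across, IHG left of Ctrl), as log10 of CPM plus 1, for fetal (left) and adult (right) liver, 1 library per column. The columns of adult stellate/fibroblast-like cells differ most: Isg15 was at 773.2 CPM in IHG and 60.7 CPM in Ctrl cells.

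Differences between IHG and Ctrl were read as log2 ratios of CPM for genes with at least 20 UMIs over both libraries of an age in a class, called measured here, and a gene was counted as higher or lower from a 2-fold difference on. The share of all measured genes of the class past the same 2-fold line is given beside each count. Medians of the set are given beside the median of all measured genes, which lay between 0.10 and 0.42 in the fetal classes.

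**Figure D2:**
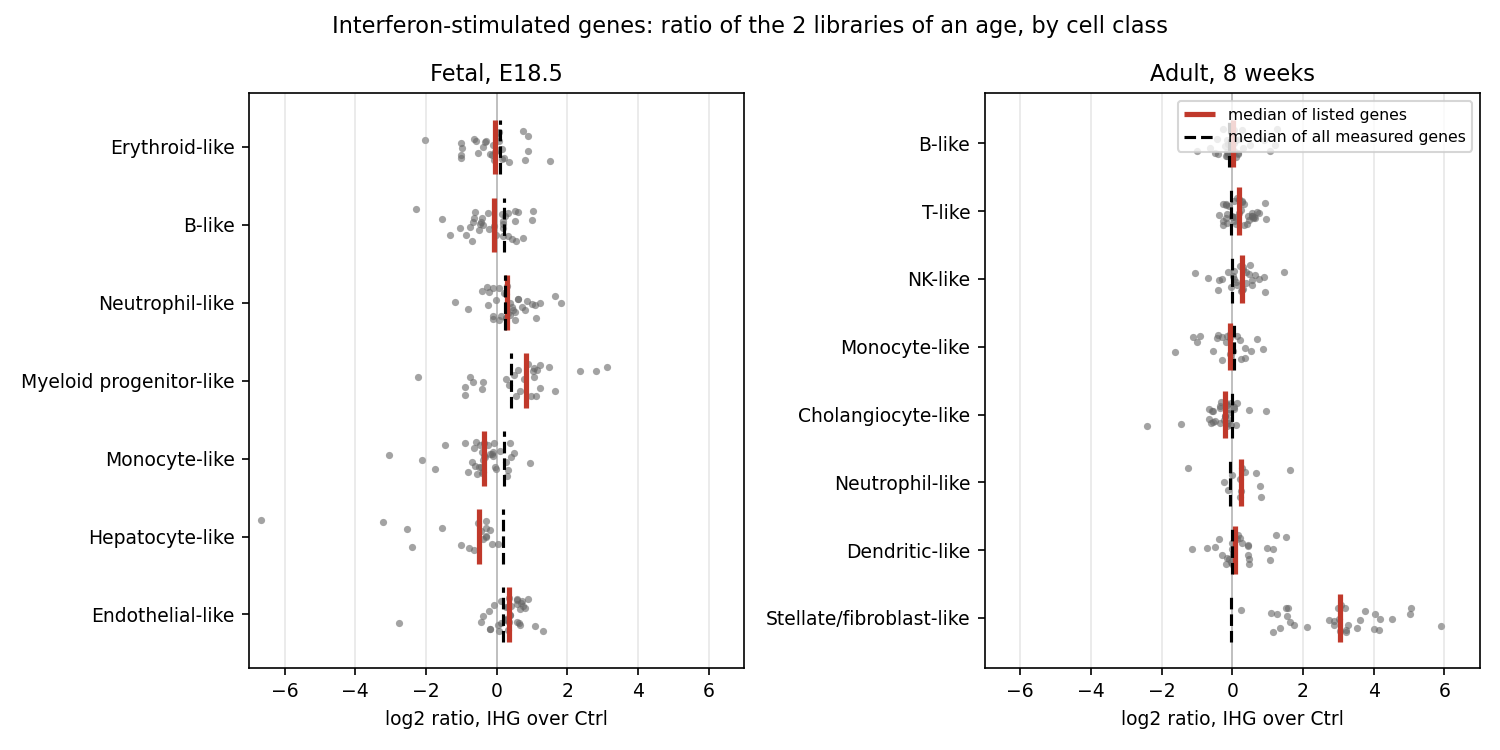
Log2 ratio of IHG over Ctrl of each measured gene of the set (grey points), by cell class, in fetal (left) and adult (right) liver; the red bar is the median of the set and the dashed bar the median of all measured genes of the class, from 1 library per group. The set lies 3.05 above 0 in adult stellate/fibroblast-like cells and within 0.83 of 0 in every other class shown.

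Adult stellate/fibroblast-like cells held the largest difference in the set. This class had 61 IHG and 44 Ctrl cells, fewer than the minimum of 50 in one library, and is given because its values had been seen. All 33 measured genes were above 0, and 32 were at least 2-fold higher in IHG cells, against 9.27% of all measured genes of the class; none was 2-fold lower, against 6.89%. The median log2 ratio was 3.05, with −0.04 over all measured genes, and 2.98 with the 3 genes at 0 UMIs in Ctrl cells set to their bounds. The genes of the set summed to 17140 CPM (5477 UMIs) in IHG cells and 3605 CPM (653 UMIs) in Ctrl cells.

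The effectors led. Isg15 stood at 773.2 CPM (247 UMIs) in IHG cells and 60.7 CPM (11 UMIs) in Ctrl cells, a log2 ratio of 3.61 (95% interval 2.81 to 4.69). Usp18, the protease that removes Isg15 from proteins, had 28 UMIs in IHG cells and none in Ctrl cells, which makes it at least 5.29-fold higher at a floor of 3 counts in the Ctrl class. The modifier and its protease were thus both higher in IHG cells. Ifit3 had 823.3 CPM in IHG cells and 33.1 CPM in Ctrl cells (log2 ratio 4.52), and Ifit1, which binds the 5′ end of foreign RNA, had 347.5 and 33.1 CPM (3.28). Ifit3b had 52 UMIs in IHG cells and none in Ctrl cells, at least 9.83-fold higher. The transcripts of Ifit3 and Ifit3b are 97.8% identical over 1700 aligned bases, so their counts may be split in an unknown way and are best read as a sum. The IFIT family summed to 1418 CPM in IHG cells and 88.3 CPM in Ctrl cells, and 4 of its 5 genes were measured, all 4 higher.

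Membrane proteins carried the highest levels. Ifitm3 stood at 5281 CPM (1687 UMIs) in IHG cells and 1849 CPM (335 UMIs) in Ctrl cells, a log2 ratio of 1.51. Bst2 had 1155 CPM in IHG cells and 143.5 CPM in Ctrl cells (2.98). Ifi27l2a, a small membrane protein of the Ifi27 family, had 4517 CPM (1443 UMIs) and 485.8 CPM (88 UMIs), a log2 ratio of 3.21. These 3 genes alone held most of the UMIs of the set in this class. Among the sensors, Zbp1, which recognises left-handed nucleic acid, stood at 156.5 CPM in IHG cells and 11.04 CPM in Ctrl cells (3.52). Ddx58, the RNA sensor RIG-I, had 29 UMIs in IHG cells and none in Ctrl cells, at least 5.48-fold higher. The DNA sensor Ifi204 was the one measured gene that stayed under 2-fold, with 507.1 CPM in IHG cells and 425.0 CPM in Ctrl cells (0.25).

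All 7 guanylate-binding and immunity-related GTPases were at least 2-fold higher, with sums of 1092 CPM in IHG cells and 226.3 CPM in Ctrl cells. Gbp7 stood at 134.6 CPM in IHG cells and 5.52 CPM (1 UMI) in Ctrl cells, a log2 ratio of 4.04. Gbp2 had 316.2 CPM in IHG cells and 121.4 CPM in Ctrl cells (1.36). Iigp1 had 225.4 and 22.1 CPM (3.19). All 3 factors of the set (Irf7, Irf9 and Stat2) were higher, led by Irf7, the amplifier of type I interferon synthesis, at 222.2 CPM in IHG cells and 27.6 CPM in Ctrl cells (2.88). The OAS family, whose active members make the messenger that switches on RNase L, summed to 231.6 and 16.6 CPM. Its best-counted member here, Oasl2, had 47 UMIs in IHG cells and 1 in Ctrl cells (4.17).

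**Figure D3:**
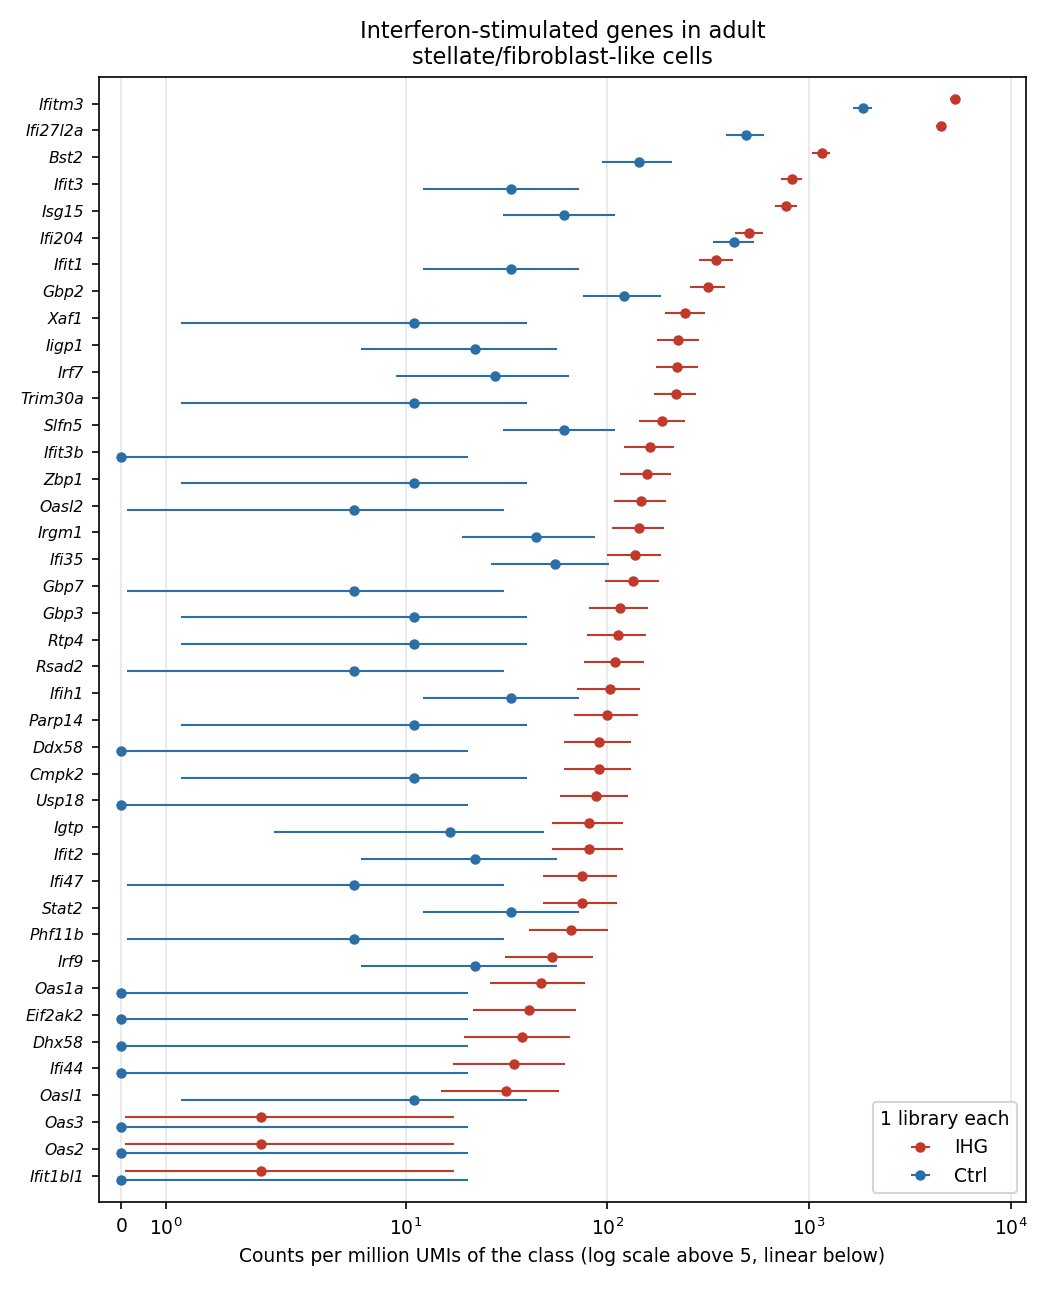
Level in CPM (log axis above 5, linear below) of each of the 41 genes in adult stellate/fibroblast-like cells of the IHG (red) and Ctrl (blue) library, with exact 95% Poisson intervals of the counts. The IHG points of Ifit3 (823.3 CPM) and Oasl2 (147.1 CPM) lie far right of the Ctrl points (33.1 and 5.52 CPM), while those of Ifi204 (507.1 and 425.0 CPM) overlap.

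The difference was spread over many of these cells. The set took between 5.70 and 646.8 UMIs per 10000 of a cell in the IHG library, with a median of 185.1, and between 0 and 99.8 with a median of 33.6 in the Ctrl library. Of the 61 IHG cells, 37 lay above the highest Ctrl cell. The cell with most UMIs of the set held 5.31% of them in the IHG library and 7.66% in the Ctrl library, and the top 5 cells held 22.5% and 30.9%.

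**Figure D4:**
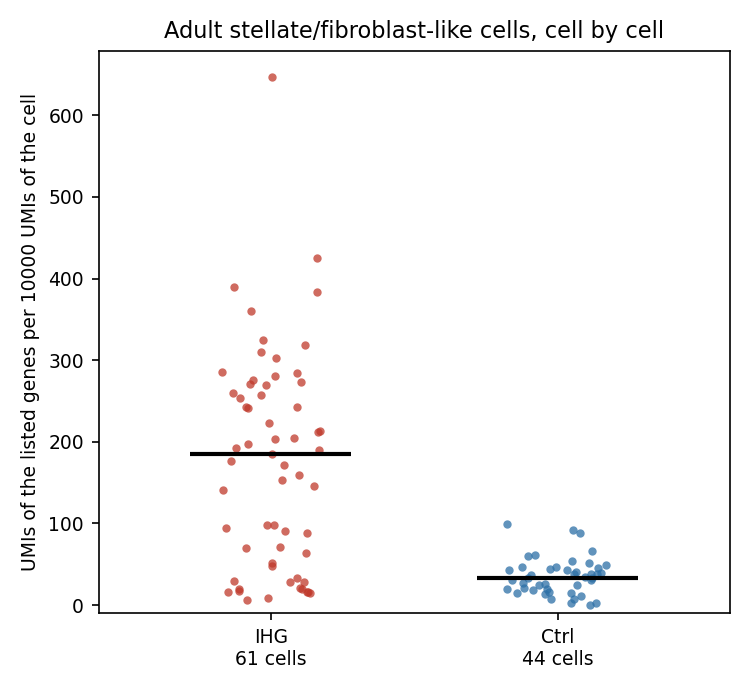
UMIs of the 41 genes per 10000 UMIs of a cell, in each adult stellate/fibroblast-like cell of the IHG (left) and Ctrl (right) library; the bar is the median (185.1 and 33.6). The IHG cells run from 5.70 to 646.8, and 37 of 61 lie above the highest Ctrl cell at 99.8.

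The name of this class was checked against its markers. Fibroblast markers were high in both libraries, with Dcn at 13380 CPM (IHG) and 16840 CPM (Ctrl), Col1a1 at 1703 and 2219 CPM, and Col3a1 at 2726 and 3373 CPM. The stellate cell markers Lrat and Reln were at 0 UMIs in both libraries, and Des had 1 and 2 UMIs, so the cells carried fibroblast markers and lacked those that define stellate cells. Markers of other cell types were also compared, since cells of another class could move the set. The monocyte list summed to 2714 CPM (IHG) and 1071 CPM (Ctrl), carried by Plac8 (1277 and 270.5 CPM) and Fn1 (1240 and 585.1 CPM), with Lyz2 at 9.39 and 93.8 CPM; the part of these cells in the result was not tested. The macrophage list summed to 316.2 and 452.6 CPM and the B cell list to 691.8 and 712.1 CPM. Spp1 had no UMI in IHG cells and 79 UMIs in Ctrl cells. Immediate-early genes, which dissociation induces, took 34920 CPM (IHG) and 37200 CPM (Ctrl). Of the cells deep enough to be thinned to 1000 UMIs, 21 IHG cells carried at least 3 of the genes chosen as low at rest, and 36 IHG cells and 41 Ctrl cells did not. In the 21 cells Dcn stood at 12030 CPM, against 14120 CPM in the 36 and 16820 CPM in the Ctrl cells. Collagens were lower in the 21 cells, with Col1a1 at 674.2 CPM, against 2256 and 2238 CPM, and Col3a1 at 863.0 CPM, against 3747 and 3383 CPM. Col1a2 had 1223 CPM in the 21 cells, against 2899 and 3115 CPM, and Dpt 1492 CPM, against 2203 and 3103 CPM. Ptprc, Cd3e, Cd79a, Lyz2 and C1qa, which mark blood cells, had no UMI in the 21 cells. What the lower collagen level has to do with the set was not tested.

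Adult T-like and NK-like cells had smaller differences, led by the same effectors. Adult mesothelial-like cells (33 IHG and 71 Ctrl cells) were under the minimum and not compared. Their median over 27 measured genes was 0.53, with −0.01 over all measured genes. Adult endothelial-like cells (47 and 62 cells), also under it, had −0.27 over 16 genes. In T-like cells (1652 IHG and 1560 Ctrl cells) the median log2 ratio of 38 measured genes was 0.20, with −0.05 over all measured genes. None of the 38 reached 2-fold in either direction, against 1.26% of all measured genes higher and 1.39% lower. Isg15 stood at 365.7 CPM in IHG T-like cells and 240.4 CPM in Ctrl T-like cells (log2 ratio 0.60, 0.50 to 0.71). Ifit1 had 51.7 CPM in IHG and 31.8 CPM in Ctrl cells (0.70), and the mitochondrial kinase Cmpk2, encoded beside Rsad2, had 4.08 and 2.05 CPM (0.96, −0.11 to 2.19). Isg15 was higher in IHG cells in each of the 6 T-like clusters, with log2 ratios between 0.50 and 2.07.

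In NK-like cells (749 IHG and 636 Ctrl cells) the median of 29 measured genes was 0.29, with −0.01 over all measured genes. Ifit3 was the 1 gene at least 2-fold higher, against 1.47% of all measured genes, with 27.0 CPM in IHG and 9.55 CPM in Ctrl cells (1.47, and 0.90 in cells thinned to 1000 UMIs). Irgm1 was the 1 gene at least 2-fold lower, against 1.58%, with 11.8 and 24.5 CPM (−1.04, and −0.84 with doublets kept). Isg15 stood at 648.8 CPM in IHG and 384.9 CPM in Ctrl NK-like cells (0.75, 0.62 to 0.89), and at log2 ratios of 0.28 and 0.92 in the 2 NK-like clusters. Ifit1 had 74.5 and 38.8 CPM (0.94).

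Adult B-like cells showed next to no difference. The median of 32 measured genes was 0.03 (all measured genes −0.10), with Isg15 at 8.51 CPM in IHG and 7.57 CPM in Ctrl cells (0.16, −0.47 to 0.83) and Ifi27l2a at 436.8 and 420.4 CPM (0.06). Ifit1, Oas2 and Dhx58 were at least 2-fold higher (3 of 32, against 0.779%), but at counts where 82.4% of the IHG UMIs of Ifit1 came from 1 cell, and none was 2-fold lower (1.36%). Dendritic-like cells (91 IHG and 172 Ctrl cells) had 4 of 28 genes higher (2.26%) and 1 lower (3.65%), with a median of 0.08 (0.01). Their Isg15 stood at 342.7 CPM in IHG and 163.3 CPM in Ctrl cells (1.07, and 0.998 at a mitochondrial maximum of 10%). Oas1a had 42.2 and 14.7 CPM (1.51); its transcript is 97.5% identical to that of Oas1g, so reads may be shared. Irf7 had 133.2 CPM in IHG and 56.0 CPM in Ctrl dendritic-like cells (1.25), with 34.2% of the IHG UMIs in 1 cell. Ifit3 was the fourth gene higher and Iigp1 the one lower.

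Neutrophil-like cells of the adult (107 IHG and 188 Ctrl cells) had 1 of 13 genes higher (1.94%) and 1 lower (6.51%), with a median of 0.24 (−0.06). Ifi27l2a stood at 1134 CPM in IHG and 365.2 CPM in Ctrl cells (1.63), with 22.1% of the IHG UMIs in 1 cell, and Isg15 at 835.9 and 522.5 CPM (0.68); Irgm1 was the gene lower. Monocyte-like cells (179 IHG and 128 Ctrl cells) went the other way for Isg15, with 94.1 CPM in IHG and 202.2 CPM in Ctrl cells (−1.10). That direction depends on the clustering: at a lower resolution the log2 ratio of Isg15 was 0.25. Rtp4, a chaperone of membrane receptors, had 11.2 CPM in IHG and 35.7 CPM in Ctrl monocyte-like cells (−1.62, and −0.78 at that resolution), and these 2 genes of 25 were lower (2.29%), none higher (3.12%), with a median of −0.06 (0.06). Cholangiocyte-like cells (106 IHG and 193 Ctrl cells) had Gbp2 and Gbp3 lower (2 of 31, against 2.20%) and none higher (1.74%), with a median of −0.21 (0.00). Gbp2 had 5.20 CPM in IHG and 30.8 CPM in Ctrl cells (−2.41), and 36.2% of the Ctrl UMIs came from 1 cell.

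In the fetal liver the most regular difference was that of Ifi27l2a, which was lower in IHG cells in each of the 7 compared classes, and in the 5 classes with ratios given here it kept that sign in every alternative run. Monocyte-like cells (306 IHG and 204 Ctrl cells) had the most of it, 1063 CPM (3753 UMIs) in IHG and 2946 CPM (4909 UMIs) in Ctrl cells, a log2 ratio of −1.47 (−1.53 to −1.41), and no cell held more than 3.33% of these UMIs. B-like cells had 405.6 CPM in IHG and 733.0 CPM in Ctrl cells (−0.85), lower in each of their 4 clusters. Neutrophil-like cells had 64.6 CPM in IHG and 147.6 CPM in Ctrl cells (−1.19, and −0.92 in thinned cells), lower in each of their 3 clusters. The gene was thus lower across lymphoid and myeloid cells of this pair of libraries, and the part of free RNA in this was not tested. In the unnamed clusters 11, 12 and 18 its log2 ratio was −1.08, 0.46 and −1.93. Endothelial-like cells (161 IHG and 61 Ctrl cells) had 27.3 CPM in IHG and 186.6 CPM in Ctrl cells (−2.76), and hepatocyte-like cells (114 and 122 cells) 15.8 and 85.1 CPM (−2.40); in these classes 1 cell held between 23.4% and 73.7% of a library's UMIs of the gene.

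Isg15 and Rsad2 call for care in the fetal libraries, because erythroid-like cells held the most of both and the haemoglobin share of the other classes differed between the libraries. Haemoglobin transcripts took 1.75% of UMIs in IHG and 7.91% in Ctrl B-like cells, 1.12% and 7.57% in monocyte-like cells, and 1.93% and 15.7% in hepatocyte-like cells. In the same classes Rsad2 was lower in IHG cells: 15.6 and 75.4 CPM in B-like cells (−2.27), 22.4 and 97.2 CPM in monocyte-like cells (−2.11), and 18.3 and 174.3 CPM in hepatocyte-like cells (−3.22). Isg15 followed it, with 44.1 CPM in IHG and 110.5 CPM in Ctrl B-like cells (−1.33, 30.1% of the IHG UMIs in 1 cell), 137.9 and 223.8 CPM in monocyte-like cells (−0.70), and 49.0 and 286.1 CPM in hepatocyte-like cells (−2.53, 50.8% of the IHG UMIs in 1 cell). The part of free RNA in these differences was not tested. The ratio of Isg15 to Rsad2 UMIs was 1.85 (IHG) and 2.06 (Ctrl) in erythroid-like cells, 2.83 and 1.47 in B-like cells and 6.17 and 2.30 in monocyte-like cells. Without cells above 10% haemoglobin, Rsad2 stood at a log2 ratio of −0.94 in monocyte-like cells and −1.97 in hepatocyte-like cells. Within fetal B-like clusters the log2 ratio of Isg15 was −0.45, −1.01, 1.46 and −5.29, so the clusters did not share a direction; the last had 1.08% (IHG) and 20.3% (Ctrl) haemoglobin.

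Erythroid-like cells themselves (2128 IHG and 3002 Ctrl cells) hardly differed in either gene, with log2 ratios of −0.12 for Isg15 (−0.14 to −0.10) and 0.03 for Rsad2. The sign of Rsad2 changes with the processing, and on a median-of-ratios scale it was −0.091. Isg15 was 0.67 without the cells above 10% haemoglobin, but that describes a small part of the class. It left 70 of 2106 IHG and 146 of 2970 Ctrl cells with at least 1000 UMIs. The median of 30 measured genes was −0.06 (all measured genes 0.10). Ifit2 was higher (1 of 30, against 4.44%) and Oas1a, Oasl1, Gbp7 and Xaf1 were lower (4 of 30, against 1.73%). Ifit1 had 21.3 CPM in IHG and 11.4 CPM in Ctrl erythroid-like cells (0.90). Xaf1, a pro-apoptotic zinc finger protein, had 0.98 CPM in IHG and 4.05 CPM in Ctrl cells (−2.03), and Gbp7 1.32 and 2.70 CPM (−1.02, and −0.68 at clustering resolution 2.0). In B-like cells (1020 IHG and 2413 Ctrl cells) Gbp7 went the opposite way, with 17.1 CPM in IHG and 8.44 CPM in Ctrl cells (1.02). It was the 1 of 35 genes higher there (4.13%), while Isg15, Ifit1, Oas1a and Rsad2 were lower (4 of 35, against 3.87%), and the median was −0.07 (0.19). Several of these do not stay past 2-fold: Rsad2 was −0.64 with doublets kept, Isg15 −0.27 at clustering resolution 2.0, and Gbp7 0.81 on a median-of-ratios scale. Ifit1 had 2.33 CPM in IHG and 6.96 CPM in Ctrl B-like cells (−1.55), and −0.09 when every cell was thinned to 1000 UMIs.

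Over its 37 measured genes the set had a median of −0.36 in fetal monocyte-like cells (all measured genes 0.22). Ifit1, Oasl1, Rsad2 and Ifi27l2a were lower (4 of 37, against 3.09%) and none was higher (5.72%). Ifit1 had 4.81 CPM in IHG and 40.2 CPM in Ctrl cells (−3.03), but 59.7% of the Ctrl UMIs came from 1 cell. Oasl1, an OAS-like protein that represses Irf7 translation, had 13.3 CPM in IHG and 44.4 CPM in Ctrl cells (−1.73), with no cell above 9.46% of a library's UMIs. Ifitm3 had 3525 and 4671 CPM (−0.41). Hepatocyte-like cells had 6 of 18 genes lower (Isg15, Ifit1, Ifi47, Rsad2, Cmpk2 and Ifi27l2a, against 6.88%) and none higher (10.2%), with a median of −0.49 (0.18). Ifit1 had no UMI in IHG and 41 UMIs in Ctrl hepatocyte-like cells, of which 53.7% came from 1 cell.

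In fetal neutrophil-like cells (2118 IHG and 990 Ctrl cells) the median of the set lay close to that of all measured genes, and the set summed to 1520 CPM in IHG and 1710 CPM in Ctrl cells. There Ifit2, Ifit3b, Ifi47, Irgm1 and Slfn5 were higher (5 of 36, against 4.82%) and Ifi27l2a alone was lower (3.41%), with a median of 0.30 (0.24). Slfn5, a member of the Schlafen family, had 16.95 CPM in IHG and 8.01 CPM in Ctrl cells (1.07, and 0.86 on a median-of-ratios scale), and Ifit3b 4.40 and 1.82 CPM (1.23). Irf7 had 49.7 CPM in IHG and 28.3 CPM in Ctrl cells (0.81). Isg15 (49.7 and 66.8 CPM, −0.43) and Rsad2 (29.6 and 52.0 CPM, −0.81) lay below 0, and turned to 0.17 and 0.21 without the cells above 10% haemoglobin; haemoglobin took 1.01% (IHG) and 3.09% (Ctrl) of the UMIs of this class. Ifitm3 had 954.1 and 1126 CPM (−0.24).

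In fetal endothelial-like cells Ifit2 and Slfn5 were higher (2 of 35, against 12.5%) and Ifi27l2a was lower (1 of 35, against 5.5%), with a median of 0.36 (0.19). Ifit2 had 110.1 CPM in IHG and 43.6 CPM in Ctrl cells (1.30), and Slfn5 244.5 and 113.9 CPM (1.09, and 0.60 in thinned cells). Both shares lie under the background of the class. Bst2 (1146 and 775.4 CPM, 0.56), Ifit1 (299.1 and 201.1 CPM, 0.57) and Rsad2 (288.5 and 193.8 CPM, 0.57) lay in the same range, while Isg15 (583.8 and 666.3 CPM, −0.19) did not; 48.8% of the Ctrl UMIs of Rsad2 came from 1 cell. Iigp1 had 537.5 and 419.2 CPM (0.36), and −0.18 in cells thinned to 1000 UMIs. Myeloid progenitor-like cells (482 IHG and 107 Ctrl cells) had 12 of 28 genes higher, in a class where 16.7% of all measured genes were, and Ifit1 lower (1 of 28, against 2.13%). Their median was 0.83 (0.42), and 0.62 with the 2 genes at 0 UMIs set to their bounds; at clustering resolution 2.0 it was 0.37, and on a median-of-ratios scale 0.45. Ifitm3 had 568.4 CPM in IHG and 271.4 CPM in Ctrl cells (1.06, and 0.51 in thinned cells), Bst2 161.2 and 86.8 CPM (0.89, and 0.48 at resolution 2.0), and Irf7 12 and 5.15 CPM (1.11, and 0.51 at resolution 2.0).

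How many cells took part was read from 18 of these genes, chosen from textbook knowledge as low at rest. They were not low in every class. In fetal Ctrl monocyte-like cells Irf7 stood at 145.2 CPM and Zbp1 at 139.8 CPM, so the score does not tell a steady level from a response. A cell was counted as responding when, thinned to 1000 UMIs, it carried UMIs of at least 3 of them; shallower cells were left out. This is a range of a score and not a cell type. Adult B-like cells served as the background, with 2 of 3317 cells (0.0603%) in IHG and 1 of 1758 (0.0569%) in Ctrl, at medians of 2007 and 2219 UMIs.

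Stellate/fibroblast-like cells of the adult differed most. In IHG 21 of 57 cells responded (36.8%, exact 95% interval 24.5 to 50.7%), and in Ctrl 0 of 41, which allows a share of up to 7.32% at the floor of 3 counts (exact 95% upper limit 8.604%). On all UMIs the shares were 37 of 61 (60.7%) and 2 of 44 (4.55%), at medians of 5728 and 4120 UMIs. Near the limit, 6 IHG cells and 1 Ctrl cell carried 2 of the genes, and 7 and 0 cells carried 3. The 21 cells carried Isg15 in 17, Ifit3 in 17, Ifit1 in 14 and Zbp1 in 9.

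Among adult T-like cells 33 of 1567 responded in IHG (2.11%, 1.45 to 2.94%) and 16 of 1490 in Ctrl (1.07%, 0.615 to 1.74%), a log2 ratio of 0.95 with an interval of 0.07 to 1.93. The intervals of these shares overlapped. The unthinned shares were 9.14% and 6.86%, and 87 IHG and 52 Ctrl cells stood just under the limit with 2 genes. Isg15 was carried by 31 of the 33 responding IHG cells and Ifit1 by 16. NK-like cells had 25 of 719 (3.48%) in IHG and 18 of 609 (2.96%) in Ctrl, with overlapping intervals and a log2 ratio of 0.22 (−0.70 to 1.19). In both libraries Oasl1 was frequent among them, in 17 of 25 IHG and 13 of 18 Ctrl cells. Neutrophil-like (7.22% and 5.88%), dendritic-like (4.49% and 3.59%), monocyte-like (2.63% and 5.56%) and cholangiocyte-like cells (1.14% and 1.57%) had overlapping intervals as well.

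In the fetal liver endothelial-like cells responded most often of the compared classes, 33 of 136 (24.3%) in IHG and 9 of 49 (18.4%) in Ctrl, with overlapping intervals and 25 and 12 shallow cells left out. Macrophage-like cells of the IHG library had 73 of 227 (32.2%), with 126 shallow cells left out; the Ctrl library had 4 such cells that were deep enough, of which 1 responded. Monocyte-like cells had 21 of 306 (6.86%) and 19 of 196 (9.69%), and neutrophil-like cells 39 of 2116 (1.84%) and 11 of 978 (1.12%). B-like cells had 2 of 997 (0.201%) and 15 of 2306 (0.651%). In the unnamed cluster 18, 1 of 235 IHG cells and 6 of 81 Ctrl cells (7.41%) responded, a log2 ratio of −3.65 (−9.65 to −1.08). Haemoglobin took 0.875% (IHG) and 9.11% (Ctrl) of the UMIs of this cluster, and its part in the difference was not tested. Erythroid-like cells had 89 of 2106 (4.23%) in IHG and 93 of 2970 (3.13%) in Ctrl, but the unthinned shares (38.7% and 43.7%) and the summed level of the 18 genes (1376 and 1426 CPM) had the opposite order, so no order is read from them. Isg15 and Rsad2 were each carried by 84 of the 89. With both genes taken out of the list, 1 of 2106 IHG and 0 of 2970 Ctrl cells responded. No myeloid progenitor-like cell responded (0 of 460 and 0 of 99, allowing up to 0.652% and 3.03% at 3 counts, with exact upper limits of 0.799% and 3.66%), and no hepatocyte-like cell (0 of 98 and 0 of 106, allowing up to 3.06% and 2.83% at 3 counts, with exact upper limits of 3.69% and 3.42%).

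**Figure D5:**
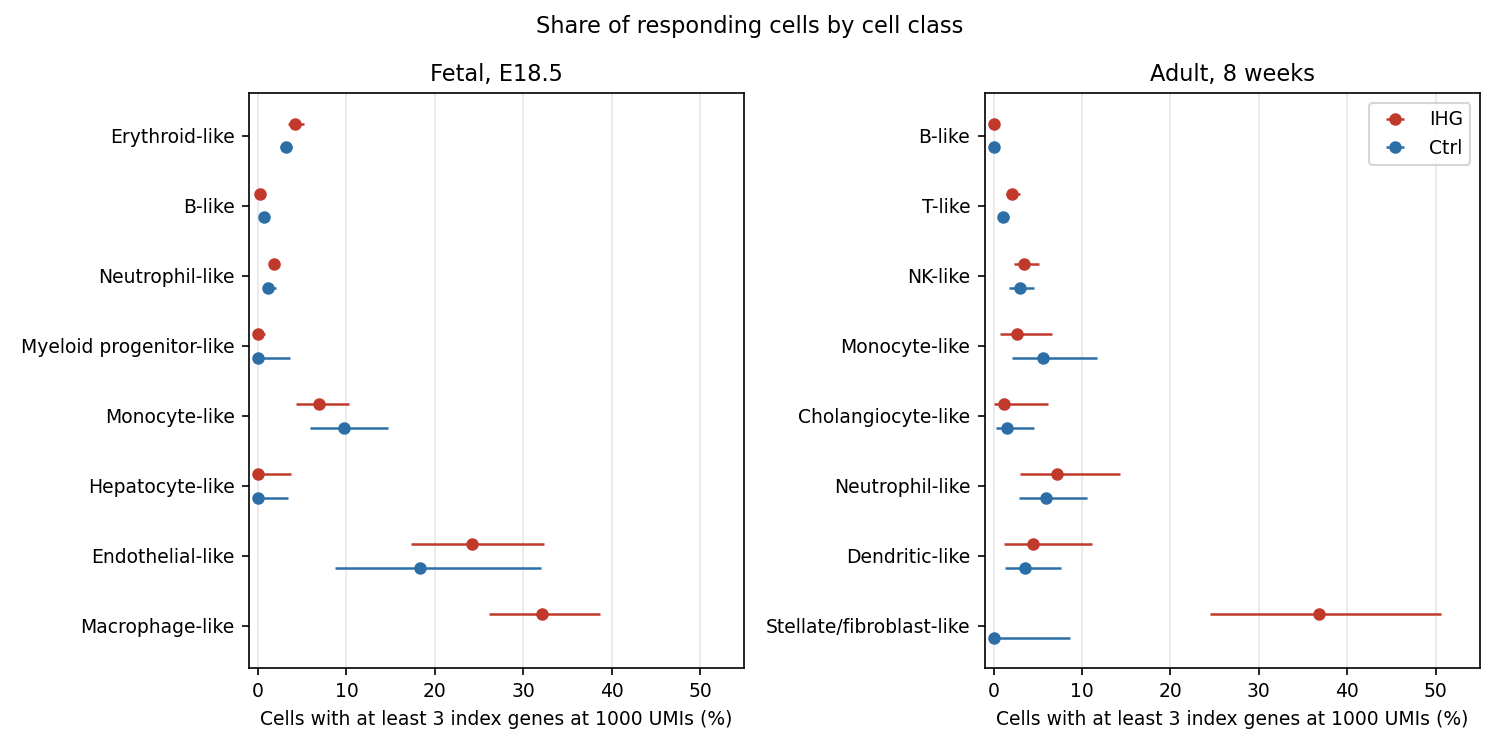
Percent of cells, each thinned to 1000 UMIs, with UMIs of at least 3 of 18 interferon-stimulated genes, by cell class in the IHG (red) and Ctrl (blue) library of fetal (left) and adult (right) liver; lines are exact 95% binomial intervals, which cover counting error only. Adult stellate/fibroblast-like cells stand at 36.8% in IHG and 0% in Ctrl, and fetal macrophage-like cells are shown for IHG alone (32.2%).

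Classes found at both ages can be set side by side, although the ages differ in depth and were clustered apart. Monocyte-like cells had 6521 CPM (IHG) and 10000 CPM (Ctrl) of the set in the fetus and 8808 and 8683 CPM in the adult. In adult neutrophil-like cells the sums were 4064 (IHG) and 2803 CPM (Ctrl), against the fetal 1520 and 1710 CPM. B-like cells had 971.5 (IHG) and 1398 CPM (Ctrl) in the fetus and 813.9 and 806.5 CPM in the adult.

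Ligands were rare. Ifnb1 had 40 UMIs from 6 cells in fetal IHG, 37 of them in macrophage-like cells, and 25 UMIs from 3 cells in fetal Ctrl, 22 of them in monocyte-like cells. In the adult it had 11 UMIs from 3 cells in IHG and 1 UMI in Ctrl. The type III ligands Ifnl2 and Ifnl3 had no UMI in fetal IHG, and 22 and 38 UMIs in fetal Ctrl. Ifng was the one ligand with wide expression: 5677 UMIs from 1201 cells in adult IHG and 5315 UMIs from 1101 cells in adult Ctrl, with 2989 and 2685 of them in NK-like cells, and 99 UMIs from 23 cells in fetal IHG and 314 UMIs from 51 cells in fetal Ctrl.

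The receptors in adult stellate/fibroblast-like cells were close to 0 on the ratio scale, while other interferon-induced genes were not. Ifnar1 had 14 UMIs in IHG and 8 in Ctrl cells (log2 ratio −0.05), Ifnar2 53 and 40 (−0.42) and Ifngr1 50 and 33 (−0.23). Jak1 stood at −0.23 and the feedback inhibitor Socs1 at −0.07 (29 and 17 UMIs). A list of 83 further interferon-induced genes outside the set had 37 measured there, of which 22 were at least 2-fold higher (against 9.27% of all measured genes) and 1 was lower (6.89%), with a median of 1.58. The surface proteins Ly6a (1129 and 75 UMIs, 3.08) and Ly6e (292 and 34 UMIs, 2.27), the immunoproteasome subunit Psmb8 (90 and 4 UMIs, 3.51) and the chemokine Cxcl10 (266 and 63 UMIs, 1.25) were among those higher. The light chain of class I molecules, B2m, stood at 0.36 (346 and 153 UMIs), and Ifitm1 was the gene lower, with 42 UMIs in IHG and 75 in Ctrl cells (−1.65).

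In the 7 compared adult classes the median of this further list lay between −0.16 and 0.03. It was 0.02 over 70 measured genes in T-like cells (all measured genes −0.05), where none passed 2-fold (1.26% of all measured genes were higher and 1.39% lower), and −0.03 over 61 in NK-like cells (−0.01), where 1 was higher (1.47%) and 1 lower (1.58%). In neutrophil-like cells 4 of 28 were higher (1.94%), Cxcl10, Ifi27, Tap1 and Trim30d, each with between 11 and 30 UMIs in IHG cells, and 1 was lower (6.51%), with a median of 0.03 (−0.06). In dendritic-like cells Isg20, Gbp8 and Ly6a were higher (3 of 55, against 2.26%) and none was lower (3.65%), with a median of 0.01 (0.01). In the compared fetal classes its median ran from −0.35 over 27 genes in hepatocyte-like cells (all measured genes 0.18) to 0.50 over 52 in myeloid progenitor-like cells (0.42). In fetal monocyte-like cells 6 of 64 were lower (3.09%) and none higher (5.72%), with a median of −0.06 (0.22). In fetal endothelial-like cells 6 of 58 were higher and 2 lower, with a median of 0.35 (0.19); 12.5% of all measured genes of that class were higher and 5.5% lower.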

How the data were processed

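Single-cell RNA was measured in 4 libraries of male mouse liver. The authors deposited tables of UMI counts for each gene in each barcode; per the file headers, Cell Ranger 5.0.0 made them. The submitters' processing notes name the build mm10, Cell Ranger and Seurat. Per the labels' protocols, livers were digested with enzymes, red cells were lysed, and adult livers were perfused beforehand. Only barcodes with at least 500 UMIs are in the tables. There were 0 other value columns.

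Kept cells had 300 genes or more and no more than 25% of UMIs from mitochondrial genes. Scrublet (scanpy 1.11.5) scored doublets, and its own threshold was used in the fetal libraries (267 IHG, 107 Ctrl). In the adult libraries it marked 0.0147% and 0%, under a minimum of 0.5%, so cells above the 95th percentile of the score were removed (286 IHG, 244 Ctrl). Both libraries of an age entered one clustering, on 2000 variable genes, without the genes of the set and its pathway, with 30 components, 15 neighbours and Leiden resolution 1.0 (leidenalg 0.10.2, igraph 0.11.9). Clusters were named from fixed markers of 19 classes, so differences from the study's own cell types may come from rebuilt names.

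UMIs were summed per library and class. Ratios are log2 of IHG over Ctrl CPM with 0.5 added to each count; intervals are exact (Poisson, conditional binomial, Clopper-Pearson) at 95% and cover counting error only. With 1 library per group no test was made. The ratio and interval steps were tested on simulated Poisson counts, which hold no spread between animals or captures. Medians of the set were not tested this way. The named genes are those of the set, with values for those with high levels, those 2-fold apart in a class and those at 0; pathway genes are named from 20 UMIs on or at 0. The set, the pathway lists and the examples were chosen with earlier results of these data known. Promoter windows are from RefSeq on GRCm38.p6, gene positions from GENCODE M21 on mm10. Calculations used scipy 1.17.1, numpy 2.4.6, pandas 2.3.3 and Biopython 1.88 under Python 3.11.15.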

Additional observations from a re-analysis of the deposited data

How the results depend on the processing

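Of 241 alternatives for medians of the set, shares of responding cells and the promoter count, 230 stayed within the main value's range. For shares and the promoter count that range is counting error. For a median it is the spread between the genes of the set. Single-gene ratios were held to counting error only, so their stability cannot be ranked against that of the medians. Of 607 alternatives for 70 single-gene ratios, 514 stayed within the main value's counting error, and 592 kept the sign. In adult stellate/fibroblast-like cells the median ran from 2.84 to 3.18 and the log2 ratio of responding shares from 3.44 to 5.46; in T-like cells the median ran from 0.15 to 0.28 and in NK-like cells from 0.23 to 0.31. Leaving out cells above 10% haemoglobin kept only 70 IHG and 146 Ctrl fetal erythroid-like cells of at least 1000 UMIs. There the median was 0.31 (16 genes) and Isg15 0.67. In the same run fetal neutrophil-like Isg15 was 0.17 and Rsad2 0.21, and the fetal monocyte-like median was −0.49. On a median-of-ratios scale that median was −0.55, and erythroid-like Rsad2 was −0.091; it was −0.042 at clustering resolution 2.0 and −0.045 on a scale without technical genes. In cells thinned to 1000 UMIs the medians were 0.11 in fetal endothelial-like (14 genes), 0.56 in adult dendritic-like (7 genes) and 0.15 in adult cholangiocyte-like cells (5 genes), fetal neutrophil-like Isg15 was 0.028 and endothelial-like Iigp1 −0.18. Endothelial-like Ifitm3 was 0.095 at resolution 2.0, and adult monocyte-like Isg15 0.25 at resolution 0.5. The fetal erythroid-like share ratio (0.43) was −0.092 from 2 genes on and −0.18 on all UMIs. Without Isg15 and Rsad2 it was 2.08, but from 1 responding cell of 2106 in IHG and 0 of 2970 in Ctrl. The adult NK-like share ratio (0.22) was 1.23 from 4 genes on and 1.26 without Isg15 and Rsad2. The cause was not tested. Fetal B-like Isg15 ran from −1.53 to −0.27, Rsad2 from −2.48 to −0.64, and Ifit1 from −1.76 to −0.09; endothelial-like Isg15 ran from −0.76 to 0.40. Leaving out the 5 cells with most of the 18 genes, showing stellate/fibroblast-like cells at all, and medians without Isg15, Rsad2 and Ifi27l2a were chosen after seeing the data. Adult dendritic-like cells at resolution 0.5 (no such class) were not run. The erythroid-like share without haemoglobin-rich cells gave no ratio, because 0 of 70 IHG and 0 of 146 Ctrl cells responded. No paired analysis was possible because each group has 1 library and the labels give no replicate numbers. Depth limits the classes with few cells: in adult stellate/fibroblast-like Ctrl cells most genes of the set have under 12 UMIs.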
